A study of Bos taurus with 17 samples.

Results

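Expression of 40 genes of the protein folding machinery was followed in bovine ovarian follicle samples: heat shock proteins and co-chaperones of the cytosol, chaperones of the mitochondrion, folding and degradation factors of the endoplasmic reticulum (ER), and the transcription factors of the heat shock and unfolded protein responses. A probe was taken for a gene when the array annotation gave its symbol, a RefSeq identifier of it, or a description naming it. The array carried 50 probes for the 40 genes among 21475 probes, and 5 of the 50 were assigned by a description in words only. A probe was called valid when 80% or more of a stage's arrays read it well above background, for each of the stages. Of all probes 13865 were valid, and 38 of the 40 genes had such a probe. The 2 others were the cytosolic small heat shock protein gene CRYAB and the transcription factor gene HSF1.

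The cow arrays compared follicles whose oocyte was poorly or fully competent to develop after fertilisation. NC1 (6 arrays) came from prepubertal calves aged 3 to 6 months, C1 (6 arrays) from adult cows, both as immature oocytes within compact cumulus recovered at slaughter. C2 (5 arrays) came from non-lactating Holstein cows aged 3 to 5 years that were superovulated with a progestagen implant, FSH with LH and a prostaglandin, and from which oocytes at metaphase II with expanded cumulus were taken by ovum pick-up. The labels call the material ovarian follicles, whereas the methods describe the cumulus cells around the oocyte. All samples were hybridised in 1 colour from 0.35 µg of RNA, and the methods state that biological replicates came from different animals. Stage and age cannot be told apart between NC1 and C1, nor between NC1 and C2, where calves also stand against adult cows. Stage, hormone treatment, follicle size and way of collection cannot be told apart between C2 and either immature stage.

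Chaperones bind polypeptides that are not yet folded and release them again, most often through cycles of ATP binding and hydrolysis. The cytosol, the mitochondrion and the ER hold separate sets, and the ER set is joined by lectins, which read the sugar chains of new glycoproteins, and by disulfide isomerases, which rearrange cysteine bonds. Unfolded protein in the cytosol frees heat shock factors to induce the first set, while unfolded protein in the ER signals through ATF6, XBP1 and ATF4 to induce the second. Cumulus cells secrete a hyaluronan-rich matrix when the cumulus expands before ovulation.

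Signals are given on a log2 scale as deposited by the authors' scanner software and set relative to the array median, so that 0 is the signal of the median probe and 1 unit is a 2-fold difference. A gene with several valid probes is represented by the brightest. Levels are compared between stages for a given probe and not between genes, since probes differ in brightness.

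Between 66.2% and 82.8% of the probes were well above background on the 17 arrays. Genes of cumulus and granulosa cells were read on all arrays of both immature stages (9 of 9 listed genes), and 8 of the 9 on all C2 arrays. Summed over the list, they reached 3.71e+03 to 8.59e+03 times the array median at NC1, 3.81e+03 to 5.45e+03 at C1 and 1.23e+03 to 4.45e+03 at C2. Oocyte genes summed to 57.5 to 137 at NC1, 5 to 53.4 at C1 and 3.29 to 7.76 at C2, and BMP15, MOS, ZAR1 and ZP2 were above background on no C2 array. Theca and stroma genes summed to 173 to 307 at NC1, 198 to 306 at C1 and 301 to 604 at C2, endothelial genes to 1.3 to 2.77, 1.23 to 1.51 and 2.65 to 11.3, and leukocyte genes to 13.3 to 22.4, 10.8 to 20.8 and 16 to 44.3. Single genes of these lists passed as higher at C2 than at C1: LUM 13.8-fold and COL1A1 2.22-fold (2 of 8 theca and stroma genes), KDR 11.9-fold (1 of 5 endothelial genes), and LYZ, CD14 and TYROBP 3.71-, 2.33- and 1.89-fold (3 of 9 leukocyte genes). The median log2 difference from C1 was −0.16 over the theca and stroma genes, −0.11 over the endothelial and 1.22 over the leukocyte genes. The endothelial gene TEK passed as 3.05-fold lower at C2 than at NC1. AMH, CYP19A1, FOXL2, FSHR and FST, 5 of 8 cumulus and granulosa genes, were lower at C2 than at C1. The part of these shifts in the results that follow was not tested. In whole samples of this kind, fewer cells of a type and less RNA per cell cannot be told apart.

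Probes of selected genes are given first, 5′ to 3′ as printed on the array. ATF6 had the largest difference between stages of the 38 genes, and CANX and PDIA3 rose and HERPUD1 fell in the ER set. Of the HSPA1A pair, the first probe passed as lower at C2 than at NC1 and the second passed in no comparison. CRYAB had the widest spread at C2.

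ATF6 (A_73_110264): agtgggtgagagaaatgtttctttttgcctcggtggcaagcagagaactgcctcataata
CANX (A_73_112455): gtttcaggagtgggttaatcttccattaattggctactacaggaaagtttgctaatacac
PDIA3 (A_73_117337): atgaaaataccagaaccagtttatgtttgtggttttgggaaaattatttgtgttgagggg
HERPUD1 (A_73_109728): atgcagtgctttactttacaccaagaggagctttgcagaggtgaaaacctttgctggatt
HSPA1A (A_73_116780): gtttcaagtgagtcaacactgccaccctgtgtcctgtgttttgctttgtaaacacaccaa
HSPA1A (A_73_104629): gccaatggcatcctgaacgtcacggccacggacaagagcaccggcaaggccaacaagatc
CRYAB (A_73_101765): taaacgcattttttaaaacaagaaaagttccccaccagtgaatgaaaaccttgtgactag

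Each is 60 bases long. Their G and C content ran from 35% (CRYAB and PDIA3) to 60% (the second HSPA1A probe), while the valid probes of the genes studied here had a median of 40% and all valid probes one of 43.3%.

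At C2 the ER stress sensor ATF6 rose over both immature stages, as did the lectin gene CANX, the degradation gene EDEM1 and the cytosolic genes DNAJB4 and HSPA14, and HSPA2 rose over NC1. A further set of ER genes (PDIA3, PDIA6, DNAJB11, DNAJC3) and of cytosolic genes (DNAJB6, HSPA4) rose over C1 alone at the threshold used. The heat shock genes HSPA1A and DNAJB1, the isomerase gene PDIA4 and the degradation gene HERPUD1 fell below NC1. Against C1, 12 of the 38 genes differed at C2 at an adjusted p below 0.01 (limma, Benjamini-Hochberg over all valid probes), 11 of them higher and 1 lower. That is 31.6%, against 28.1% of all valid probes, and 15.3% of all valid probes were higher and 12.8% lower. Against NC1, 10 of 38 differed (26.3%, against 28.1% of all valid probes), 6 higher and 4 lower, where 15.5% of all valid probes were higher and 12.6% lower. Between C1 and NC1 none of the 38 passed, and 0.0577% of all valid probes did (0.00721% higher and 0.0505% lower at C1). Between C1 and NC1, 13 of the 38 had an unadjusted p below 0.05, against 9.84% of all valid probes. Over the 3 stages together 10 of 38 differed (26.3%, against 28.6%). The share of genes called was thus near that of the whole array in both comparisons with C2, and the description below is of which genes moved and of their direction.

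**Figure D1:**
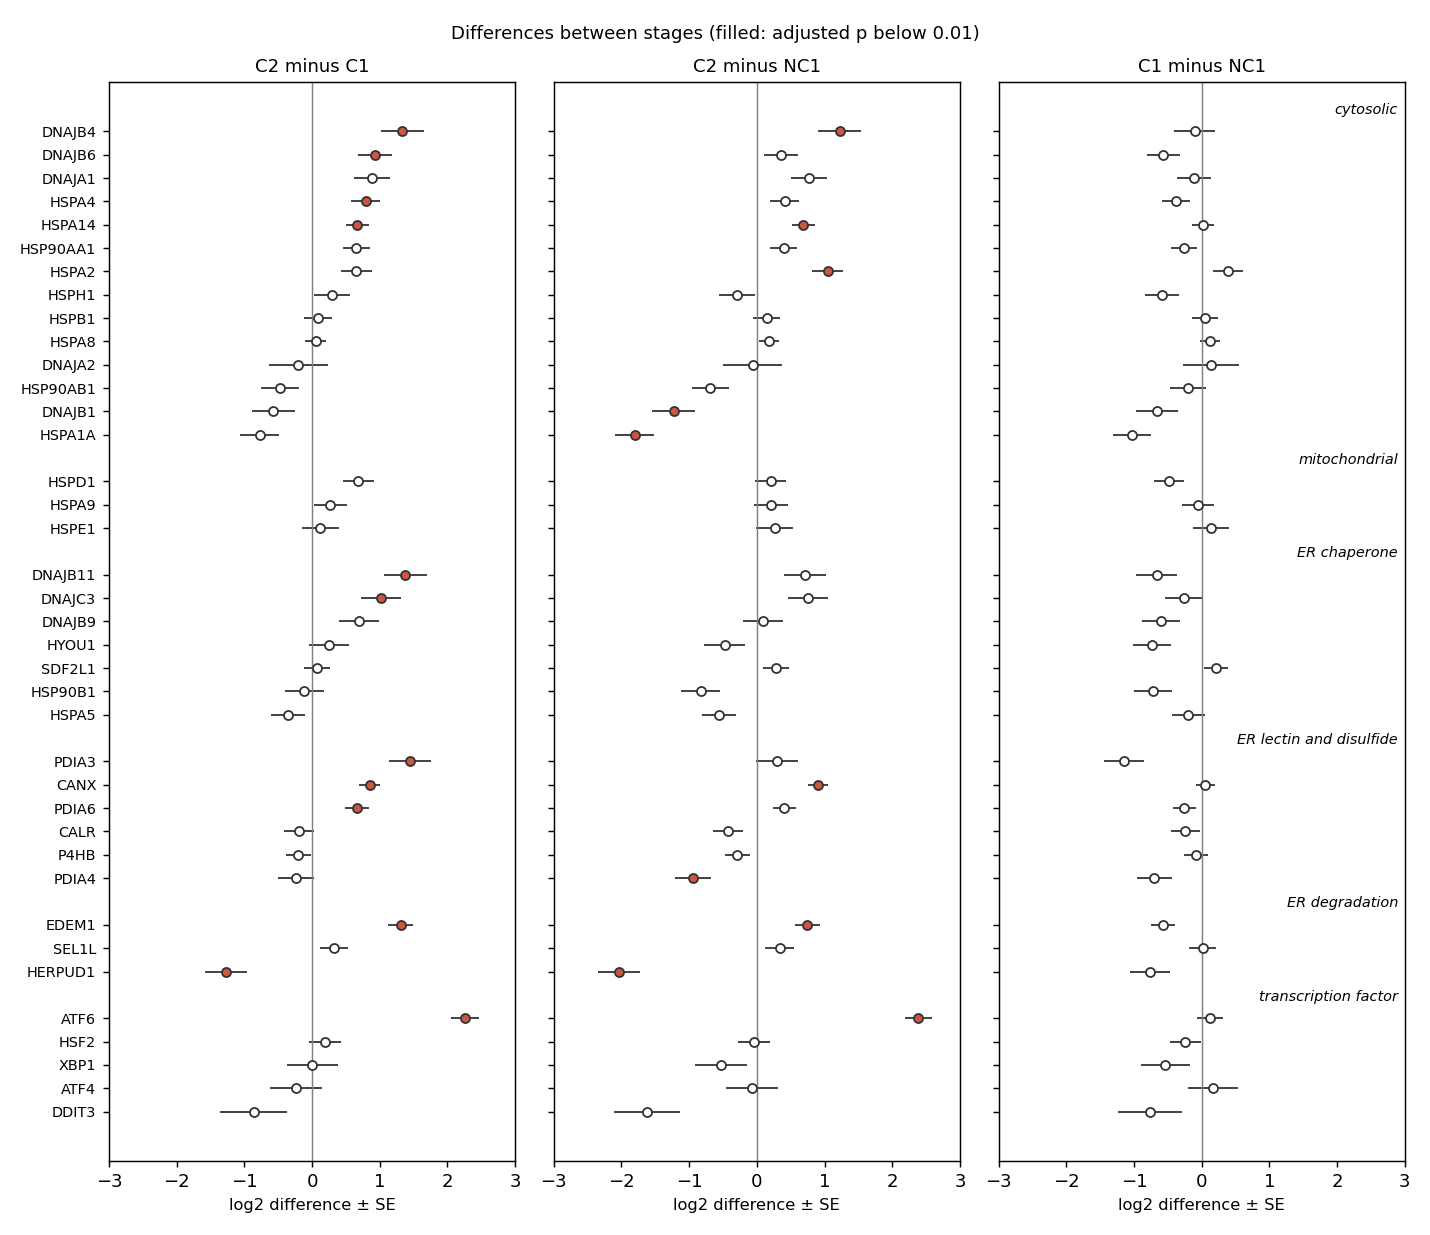
Log2 difference between stages (horizontal axis, point and SE) for the 38 genes grouped by role, in 3 panels for C2 minus C1, C2 minus NC1 and C1 minus NC1, with filled points for an adjusted p below 0.01. Most points lie right of 0 in the first panel, and 27 of 38 lie left of it in the third (17 of 38 after normexp background correction), where none is filled.

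Among the transcription factors, ATF6 rose. It encodes a membrane protein of the ER whose cytosolic part is cut free under folding stress and enters the nucleus. Its probe lay between −1.81 and −1.01 at NC1 (median −1.25, n = 6) and between −1.50 and −0.98 at C1 (median −1.13, n = 6), while the C2 arrays read 0.48, 1.57, 1.18, 1.27 and 0.76. All C2 arrays lay above all arrays of both immature stages. ATF6 was 4.78-fold higher at C2 than at C1 (log2 difference 2.26, SE 0.20, adjusted p = 8.4e-08, exact permutation p = 0.00216, the smallest possible here) and 5.21-fold higher than at NC1 (2.38, SE 0.20, adjusted p = 4.82e-08). After normexp background correction the log2 differences were smaller, 1.56 from C1 and 1.47 from NC1, and passed the threshold (adjusted p = 1.09e-06 and 2.39e-06).

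The other factors of the ER response did not pass against either stage. XBP1, whose RNA is spliced in the cytosol on ER stress into the form that makes the active factor, was 0.01 higher at C2 than at C1 (log2 difference, SE 0.38, adjusted p = 0.992). Its C2 arrays read 6.76, 6.05, 8.43, 8.71 and 7.01 against 6.82 to 8.19 at C1, so that C2 spanned more than the whole C1 range in both directions. The array probe does not tell the spliced from the unspliced RNA. DDIT3, which encodes CHOP, a factor of prolonged stress, read 1.64, 2.17, 4.46, 4.58 and 1.95 at C2, against 2.99 to 4.70 at C1 and 3.90 to 4.94 at NC1. Its mean was 1.62 log2 units lower at C2 than at NC1 (SE 0.49, adjusted p = 0.0133), which missed the threshold, and 3 C2 arrays lay below every NC1 array. ATF4, the translation-controlled factor upstream of CHOP, and HSF2, a heat shock factor, differed from either stage by at most 0.23 in size, at an adjusted p of 0.546 or more. HSF1, the main heat shock factor, had no valid probe, since its brighter probe was above background on 4 of 6 NC1 arrays. That probe lay between −2.07 and −1.59 at C2, −2.04 and −1.66 at C1 and −2.60 and −1.84 at NC1, and in a fit to all probes C2 was 0.01 above C1 (SE 0.18, adjusted p = 0.975). A second HSF1 probe, named in words only, was above background on 1 array of the 17.

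**Figure D2:**
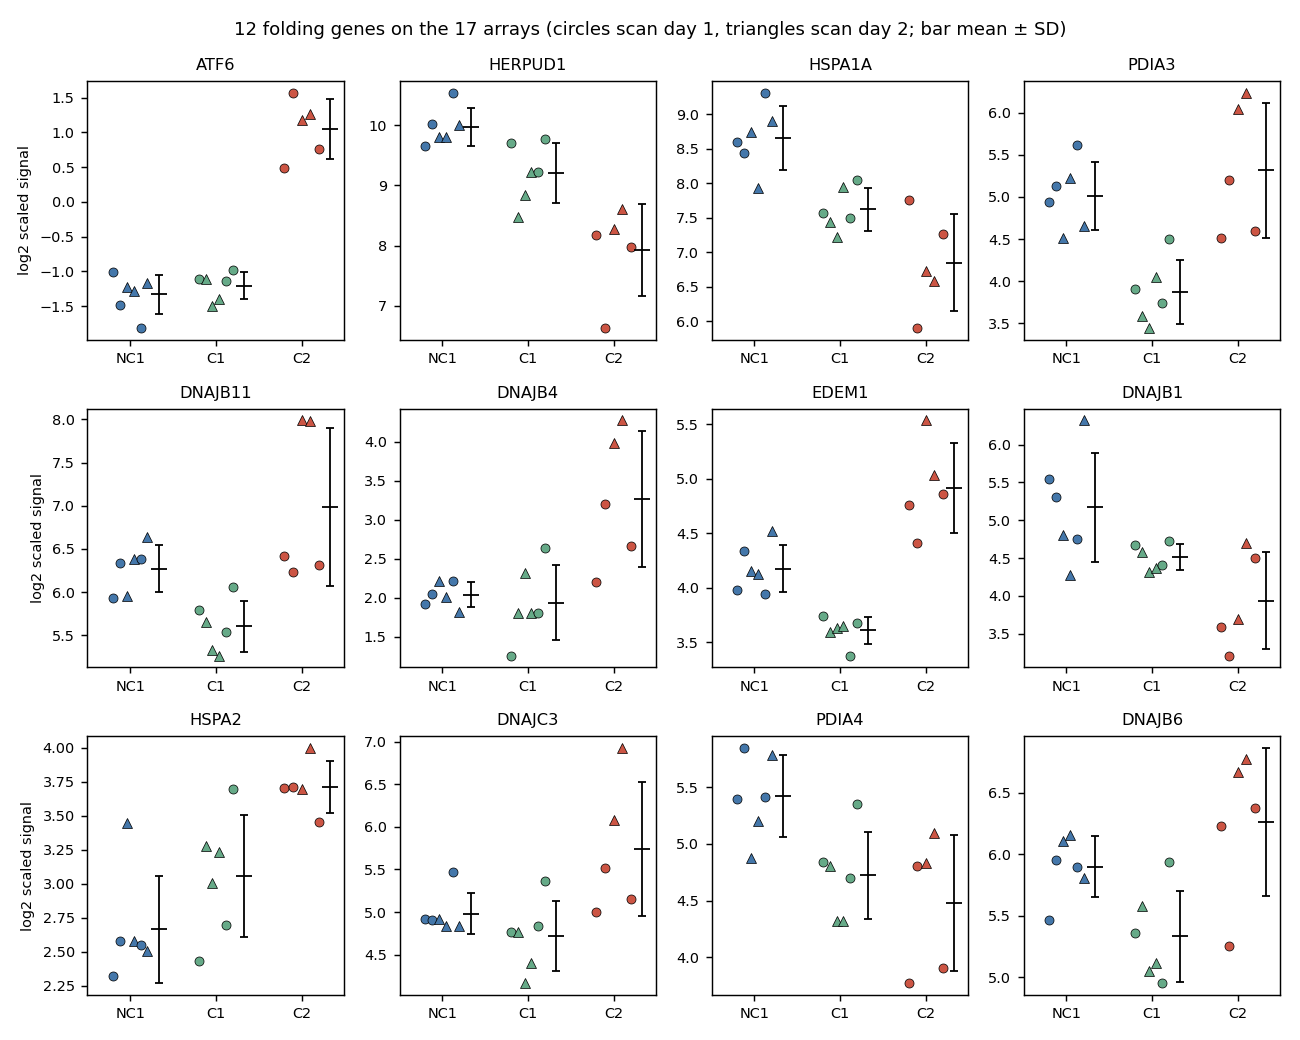
Log2 scaled signal (vertical axis) of 12 folding genes on each of the 17 arrays by stage, with circles for scan day 1, triangles for scan day 2, and a bar with mean and SD. The C2 arrays of ATF6, at 0.48 to 1.57, lie above all others, and those of HERPUD1 and HSPA1A lie below all NC1 arrays.

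In the ER, 7 of the 16 tested genes differed between C2 and C1, 6 higher and 1 lower (43.8%, against 28.1% of all valid probes, 15.3% higher and 12.8% lower). Their median log2 difference was 0.29, against 0.02 over all valid probes, and it stayed above 0 with other scalings (0.10 to 0.20). All arrays of the pair of stages were apart for 5 of them, each higher at C2, where 10.7% of all valid probes were higher without overlap. Against NC1 the ER set was split, with 2 of 16 higher and 2 lower. That is 25% called, against 28.1% of all valid probes, of which 15.5% were higher and 12.6% lower. Counting all 38 genes, the C2 arrays lay wholly above those of NC1 for 5 genes and wholly below for 2, where 10.6% of all valid probes were above, 10.3% below and 20.9% either. Against C1 they lay wholly above for 7 and wholly below for none, where 11% of all valid probes were below and 21.6% either.

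Among the lectins and disulfide enzymes, CANX, PDIA3 and PDIA6 rose over C1. CANX encodes calnexin, the membrane lectin that holds new glycoproteins in the folding cycle. It read 5.35, 4.94, 5.18, 5.49 and 5.26 on the C2 arrays, 4.08 to 4.71 at C1 (median 4.39) and 4.24 to 4.50 at NC1 (median 4.34). No C2 array overlapped an immature one. CANX was 1.80-fold higher than at C1 (log2 difference 0.85, SE 0.15, adjusted p = 0.000188) and 1.87-fold higher than at NC1 (0.91, SE 0.15, adjusted p = 0.000106).

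PDIA3, the disulfide isomerase that works with calnexin and calreticulin (ERp57), was lowest at C1. It lay between 4.51 and 5.62 at NC1 (median 5.04) and between 3.44 and 4.50 at C1 (median 3.82), and read 4.51, 5.20, 6.05, 6.24 and 4.59 at C2. The C1 arrays all lay below those of the other stages, while C2 and NC1 overlapped. PDIA3 was 2.72-fold higher at C2 than at C1 (log2 difference 1.45, SE 0.31, adjusted p = 0.00111), and 0.30 higher than at NC1 (SE 0.31, adjusted p = 0.468). Its fall from NC1 to C1 was 2.21-fold (−1.14, SE 0.30), all C1 arrays below all NC1 arrays, and did not pass across all probes (adjusted p = 0.109).

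PDIA6, another isomerase, which also acts on the sensors of the unfolded protein response, lay between 10.41 and 10.94 on the C2 arrays and between 9.72 and 10.35 at C1. The arrays of the 2 stages did not overlap, and the difference was 1.58-fold (log2 0.66, SE 0.17, adjusted p = 0.00517). With the slide as a block the adjusted p was 0.0231, and 11 of 30 settings did not keep the call. PDIA4 went the other way against NC1. It read 3.77, 4.80, 4.83, 5.10 and 3.91 at C2 and 4.88 to 5.85 at NC1 (median 5.41), and was 1.92-fold lower (log2 difference −0.94, SE 0.27, adjusted p = 0.00862), a call that 17 of 30 other settings did not keep. P4HB, the main protein disulfide isomerase, and CALR, the soluble lectin calreticulin, did not pass against either stage. P4HB differed by −0.20 (SE 0.18) from C1 and by −0.29 (SE 0.18) from NC1.

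CALR had a second probe, assigned by a description in words only, which read otherwise. It was 1.93-fold lower at C2 than at C1 (log2 difference −0.95, SE 0.19, adjusted p = 0.000637) and 1.79-fold lower than at NC1 (−0.84, SE 0.19, adjusted p = 0.00186), without overlap of arrays in both. The probe with the CALR symbol was 0.19 lower than at C1 (adjusted p = 0.518) and 0.43 lower than at NC1 (adjusted p = 0.128). Both lay lower at C2, and which transcript the second probe reads was not tested.

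Of the ER chaperones and their J-domain partners, DNAJB11 and DNAJC3 rose over C1. DNAJB11 (ERdj3) hands unfolded clients to the ER HSP70, BiP. Its C2 arrays read 6.42, 6.23, 7.99, 7.98 and 6.31, all above the C1 arrays at 5.26 to 6.06 (median 5.60), while NC1 lay between 5.93 and 6.64 (median 6.36) and overlapped them. It was 2.60-fold higher than at C1 (log2 difference 1.38, SE 0.31, adjusted p = 0.00169) and 0.71 higher than at NC1 (SE 0.31, adjusted p = 0.076). The call against C1 was lost in 1 of 30 settings, normexp correction (adjusted p = 0.0158). Within the first scan day the difference from C1 was 0.53 and within the second 2.57.

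DNAJC3 (p58IPK), which restrains the kinase PERK as well as serving BiP, read 5.00, 5.52, 6.08, 6.93 and 5.15 at C2 against 4.16 to 5.37 at C1 (median 4.76). The ranges overlapped. The 2.02-fold difference (log2 1.02, SE 0.29) had an adjusted p of 0.00983, next to the threshold, and 25 of 30 other settings did not keep the call. The third J-domain gene, DNAJB9 (ERdj4), had a pair of probes that moved alike: 0.69 (SE 0.30, adjusted p = 0.0715) and 0.73 (SE 0.37, adjusted p = 0.12) higher than at C1, neither past the threshold.

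BiP itself and the large ER chaperones did not pass. HSPA5, which encodes BiP, read 9.09, 9.42, 10.34, 10.34 and 9.29 at C2 against 9.73 to 10.21 at C1 and 9.90 to 11.09 at NC1. Of those C2 arrays 3 lay below every immature array and the other 2 lay above the C1 range. The mean was 0.36 lower than at C1 (SE 0.25, adjusted p = 0.281). HSP90B1 (GRP94) was 0.11 lower than at C1 (SE 0.29, adjusted p = 0.78) and 0.83 lower than at NC1 (SE 0.29, adjusted p = 0.0301). The nucleotide exchange factor gene HYOU1 was 0.25 higher than at C1 (SE 0.30, adjusted p = 0.528) and SDF2L1, a partner of ERdj3, 0.07 higher (SE 0.19, adjusted p = 0.785).

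The degradation genes moved in opposite directions. EDEM1, a lectin-like protein that draws terminally misfolded glycoproteins out of the folding cycle, read 4.75, 4.41, 5.53, 5.03 and 4.86 at C2, 3.38 to 3.74 at C1 (median 3.64) and 3.94 to 4.52 at NC1 (median 4.14). All C2 arrays lay above all C1 arrays and overlapped NC1 with 1 array. It was 2.48-fold higher than at C1 (log2 difference 1.31, SE 0.18, adjusted p = 1.72e-05) and 1.67-fold higher than at NC1 (0.74, SE 0.18, adjusted p = 0.00339), the latter lost in 5 of 30 settings.

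HERPUD1, a membrane protein that organises the retrotranslocation complex, was highest at NC1. It lay between 9.65 and 10.54 at NC1 (median 9.91) and between 8.47 and 9.77 at C1 (median 9.22), and read 8.18, 6.63, 8.27, 8.61 and 7.97 at C2. The C2 arrays were all below NC1 and overlapped C1 with 1 array. HERPUD1 was 4.10-fold lower at C2 than at NC1 (log2 difference −2.04, SE 0.31, adjusted p = 4.03e-05) and 2.41-fold lower than at C1 (−1.27, SE 0.31, adjusted p = 0.00293), the latter lost with the 2 stages alone. Its distance from C1 was −1.97 within the first scan day and −0.41 within the second. SEL1L, which anchors the HRD1 ligase, was 0.32 higher than at C1 on one probe (SE 0.21, adjusted p = 0.235) and 0.84 higher on the other (SE 0.25, adjusted p = 0.0126).

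In the cytosol, 4 of 14 tested genes rose over C1 and none fell (28.6%, against 28.1% of all valid probes, 15.3% of them higher), with a median log2 difference of 0.48. Against NC1, 3 rose (HSPA14, HSPA2 and DNAJB4) and 2 fell (HSPA1A and DNAJB1). That is 35.7% called, against 28.1% of all valid probes (15.5% higher and 12.6% lower). The 4 that rose over C1 were the J-domain genes DNAJB4 and DNAJB6, the HSP110-type exchange factor gene HSPA4, and HSPA14, which encodes the HSP70-like protein of the ribosome-associated complex. DNAJB4 lay between 1.82 and 2.22 at NC1 (median 2.04) and between 1.26 and 2.64 at C1 (median 1.80), and read 2.21, 3.21, 3.99, 4.28 and 2.66 at C2. The C2 arrays overlapped NC1 and C1 with 1 array each. It was 2.52-fold higher than at C1 (log2 difference 1.33, SE 0.32, adjusted p = 0.00255) and 2.34-fold higher than at NC1 (1.23, SE 0.32, adjusted p = 0.00469). The first call was lost in 1 of 30 settings (the 2 stages alone) and the second in 7, the slide block among them (adjusted p = 0.0111).

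DNAJB6, an anti-aggregation co-chaperone, read 6.23, 5.26, 6.67, 6.78 and 6.37 at C2 against 4.95 to 5.94 at C1 (median 5.24). Only replicate 2 fell within the C1 range. DNAJB6 was 1.90-fold higher than at C1 (log2 difference 0.93, SE 0.25, adjusted p = 0.00645). HSPA4 was 1.73-fold higher (0.79, SE 0.21, adjusted p = 0.00613). Of 30 other settings 14 did not keep the call of DNAJB6 and 15 that of HSPA4, among them the slide as a block (adjusted p = 0.0121 and 0.0129). HSPA14 was higher than both stages without overlap, at 5.00 to 5.52 on the C2 arrays against 4.30 to 4.93 at C1 and 4.35 to 4.90 at NC1, by 0.67 (SE 0.17, adjusted p = 0.00403) and 0.69 (SE 0.17, adjusted p = 0.00326), calls that 6 and 4 of 30 settings did not keep. 

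HSPA2, an HSP70 best known from the testis, rose over NC1. Its arrays lay between 2.32 and 3.44 at NC1 (median 2.56) and between 2.43 and 3.70 at C1 (median 3.12), and read 3.70, 3.71, 3.69, 4.00 and 3.45 at C2. The C2 arrays were tightly grouped and above all NC1 arrays. It was 2.07-fold higher than at NC1 (log2 difference 1.05, SE 0.23, adjusted p = 0.00136), and its log2 difference from C1 of 0.66 missed the threshold (SE 0.23, adjusted p = 0.0288).

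HSPA1A, the HSP70 gene that heat and other protein-damaging stress induce most strongly, fell. By its brightest probe it lay between 7.93 and 9.31 at NC1 (median 8.67) and between 7.23 and 8.05 at C1 (median 7.53), and read 7.76, 5.90, 6.73, 6.59 and 7.26 at C2. Every C2 array lay below every NC1 array. HSPA1A was 3.49-fold lower at C2 than at NC1 (log2 difference −1.80, SE 0.29, adjusted p = 8.19e-05). Against C1 it was 0.77 lower (−0.77, SE 0.29, adjusted p = 0.0409), which missed the threshold, and C1 was 1.03 below NC1 (−1.03, SE 0.28, adjusted p = 0.13), lower on each of the 6 slides.

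The annotation of HSPA1A was the least certain of the set. The brightest probe is named by an expressed sequence tag whose description gives the gene, a second bears the symbol of the near-identical copy HSPA1B, and either probe may read both copies. The second probe was also lower at C2, by −1.35 from NC1 (SE 0.48, adjusted p = 0.0302) and by −0.94 from C1 (SE 0.48, adjusted p = 0.121). The probe with the HSPA1A symbol rose clearly over background on 3 of 6 NC1 arrays, 5 of 6 C1 arrays and no C2 array. A fit to all probes gave a log2 difference of −1.55 between C2 and C1 (SE 0.64, adjusted p = 0.0709), which missed the threshold. Since these means hold readings not well above background, the size is uncertain and is not given as a fold. All 3 probes had their lowest mean at C2.

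**Figure D3:**
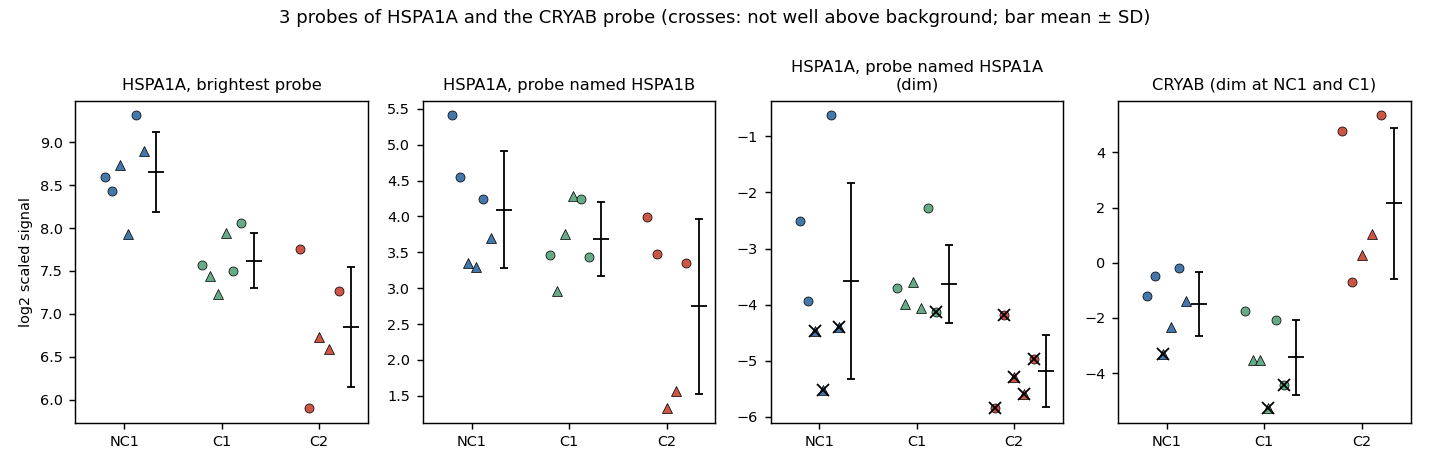
Log2 scaled signal (vertical axis) of 3 HSPA1A probes and the CRYAB probe on each array by stage, with crosses where the probe was not well above background and a bar with mean and SD. The HSPA1A probes are lowest at C2, and CRYAB is highest there, from −0.69 to 5.35.

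DNAJB1 (HSP40), the J-domain partner that is induced together with HSPA1A, fell likewise. It lay between 4.28 and 6.32 at NC1 (median 5.06) and read 3.58, 3.21, 3.69, 4.70 and 4.51 at C2, with overlap. It was 2.35-fold lower than at NC1 (log2 difference −1.23, SE 0.32, adjusted p = 0.00473, exact permutation p = 0.02165) and 0.57 lower than at C1 (SE 0.32, adjusted p = 0.162). A second probe, named in words only, was 2.15-fold lower than at NC1 (SE 0.32 on the log2 scale, adjusted p = 0.0092). With the slide as a block the brightest probe had an adjusted p of 0.0181, and 11 of 30 settings did not keep its call.

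The remaining cytosolic genes with a valid probe did not pass in any comparison. HSPA8, the everyday HSP70, was 0.06 higher than at C1 (SE 0.15, adjusted p = 0.792). HSP90AA1 was 0.66 higher (SE 0.20, adjusted p = 0.0133) and DNAJA1 0.89 higher (SE 0.26, adjusted p = 0.0117), both just outside the threshold and higher on all 5 slides. HSP90AB1, the other cytosolic HSP90, was 0.48 lower (−0.48, SE 0.28, adjusted p = 0.183). The small heat shock protein gene HSPB1 was 0.09 higher (SE 0.20, adjusted p = 0.751), HSPH1 0.30 higher (SE 0.27, adjusted p = 0.402), and DNAJA2 0.20 lower (−0.20, SE 0.44, adjusted p = 0.737).

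CRYAB, the αB-crystallin gene, was above background on 5 of 6 NC1, 4 of 6 C1 and all 5 C2 arrays, and so fell short of the valid probes. It read 4.79, −0.69, 0.27, 1.06 and 5.35 at C2, and lay between −5.27 and −1.76 at C1 and between −3.32 and −0.20 at NC1. All C2 arrays were above all C1 arrays, and replicate 2 fell within the NC1 range. A fit to all probes gave a difference of 5.58 from C1 (SE 0.98, adjusted p = 0.00023) and of 3.64 from NC1 (SE 0.98, adjusted p = 0.00806). Since 2 C1 readings and 1 NC1 reading in those means were not well above background, the sizes are uncertain and are given as measured, not as folds. Leukocyte markers were also highest on the C2 arrays with the highest CRYAB, at summed signals of 34.9 and 44.3 on replicates 1 and 5 against 16 to 20.4 on the others, and their part in the CRYAB readings was not tested.

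In the mitochondrion none of the 3 genes passed in any comparison. HSPD1, the chaperonin HSP60, read 8.62, 7.26, 7.97, 8.15 and 8.75 at C2 against 7.17 to 7.73 at C1, and was 0.69 higher with overlap at 1 array (SE 0.23, adjusted p = 0.0227). Its co-chaperonin HSPE1 was 0.12 higher (SE 0.28, adjusted p = 0.751), and HSPA9 (mortalin), the HSP70 that pulls imported proteins into the matrix, 0.27 higher (SE 0.25, adjusted p = 0.408).

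The C2 arrays did not behave as 1 group for the ER genes. Those arrays were scanned on 2 days: replicates 1, 2 and 5 on the first and replicates 3 and 4 on the second. Both second-day arrays lay above all first-day arrays for 14 of the 16 ER genes (87.5%), against 29.6% of all valid probes, 4 of 14 cytosolic genes and 1 of 3 mitochondrial ones. So did 4 of the 5 tested transcription factors: XBP1, DDIT3, ATF4 and HSF2. The ER exceptions were CANX, which overlapped, and SDF2L1, which was lower on the second day. The 4 cytosolic genes were DNAJA1, DNAJB4, DNAJB6 and HSPB1. DNAJB4 had a mean of 2.69 on the first day and 4.13 on the second.

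For several genes the split was as wide as the stage differences given above. The mean of XBP1 at C2 was 6.61 on the first day and 8.57 on the second, a difference of 1.97, and that of DDIT3 was 1.92 and 4.52. In the same terms DNAJB11 went from 6.32 to 7.98, DNAJB9 from 3.09 to 4.69, HYOU1 from 7.43 to 8.88 and HSPA5 from 9.26 to 10.34. Over the 16 ER genes the median difference between days was 0.82, against 0.14 over all valid probes. At NC1 and C1, where each day held 3 arrays, none of the 38 genes was higher on all second-day arrays. Of all valid probes 4.11% were at NC1 and 1.49% at C1. At each of these stages 3 of the 38 were lower on all second-day arrays, against 2.94% and 3.07% of all valid probes. Of the 16 ER genes, 1 was lower in this way at NC1 and 3 at C1.

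The split lay along other measurements too. By their whole profile replicates 3 and 4 were alike, as were 1 and 5, and replicate 2 was apart. Cumulus and granulosa markers summed to 4.28e+03 and 4.45e+03 on replicates 3 and 4, and to 1.30e+03, 2.84e+03 and 1.23e+03 on replicates 1, 2 and 5. Endothelial genes summed to 9.86 and 11.3 on replicates 3 and 4 against 2.65 to 6.8 on the others, and oocyte genes to 3.29 and 4.45 against 7.14 to 7.76. Theca and stroma genes (438 and 604 against 301 to 458) and leukocyte genes (19.3 and 20.4 against 16 to 44.3) overlapped between the days. The part of these markers in the split was not tested. Scan day and animal cannot be told apart within C2. Among ER folding genes outside the 40, 18 of 29 were higher on both second-day arrays than on all first-day arrays (62.1%) and none was lower. Of all valid probes 29.6% were higher in this way and 17.4% lower. DERL1, DERL2, EDEM2, SIL1, MANF and CRELD2 were among the 18. In the other lists outside the 40, 13 of 40 cytosolic genes were higher and 4 lower. For mitochondrial genes it was 4 of 10 and 1, and for genes of stress control 5 of 14 and 1.

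**Figure D4:**
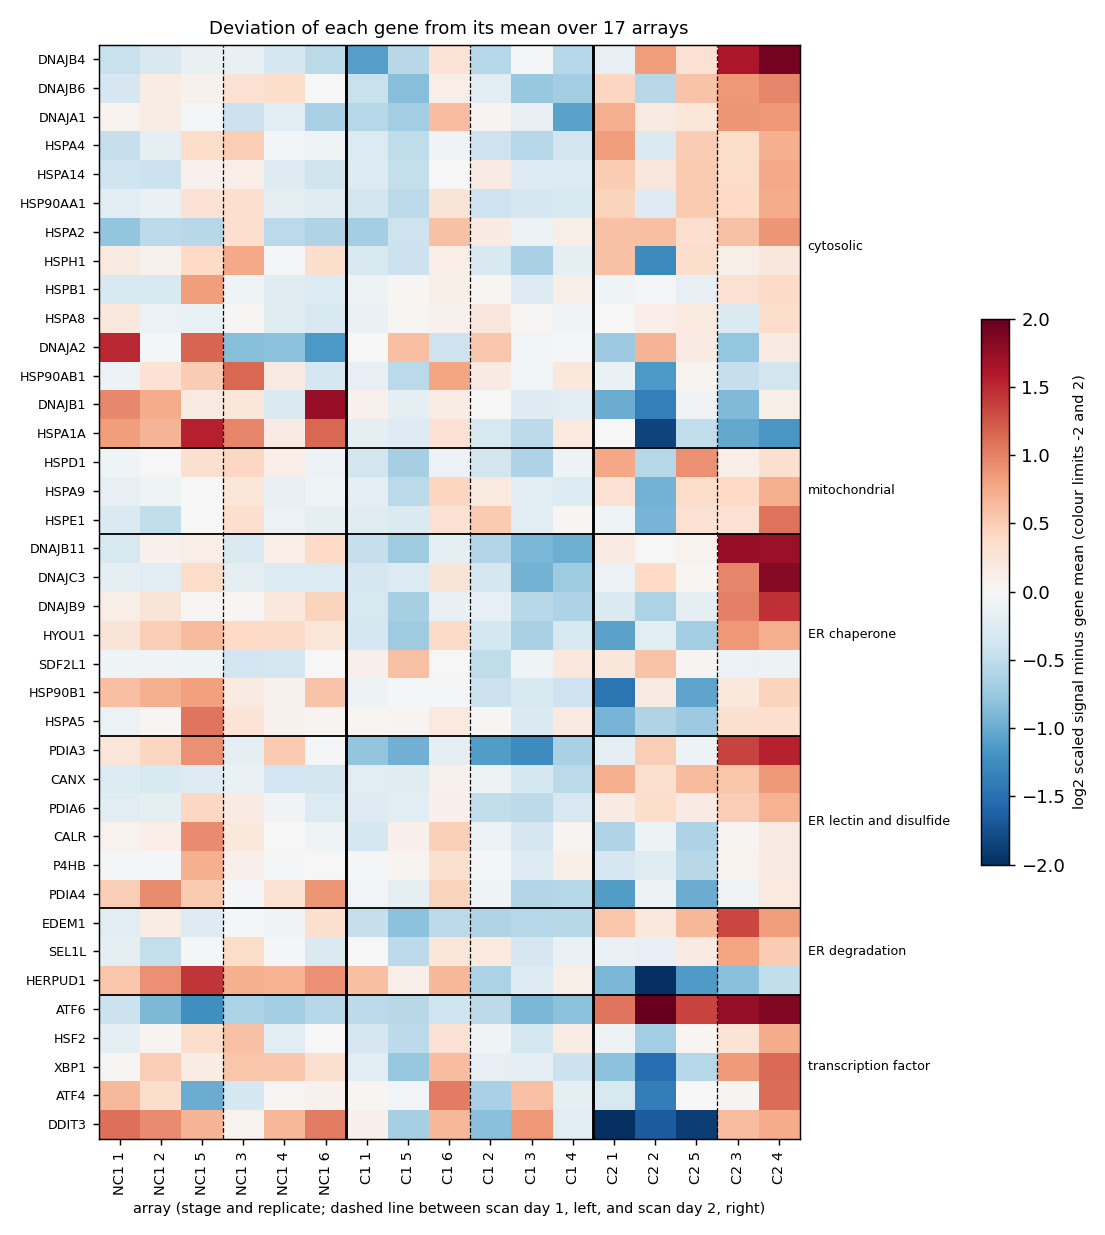
Deviation of each gene from its mean over the 17 arrays (log2, colour limits −2 and 2), with genes in rows by role and arrays in columns by stage, a dashed line parting the scan days within each stage. In the C2 columns the ER genes are higher on the 2 arrays right of the line than on the 3 left of it, as 14 of 16 were without overlap.

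Differences between stages were also taken within each day, without a test of the days against each other. Within the first day PDIA3 was 0.72 higher at C2 than at C1, and within the second 2.45 higher. DNAJC3 went from 0.23 to 2.06, and XBP1 from −0.85 to 1.26. In the cytosol DNAJB4 went from 0.79 to 2.16 and DNAJB6 from 0.54 to 1.47. Both passed on the second day alone, with an adjusted p of 0.174 and 0.35 on the first (limma fitted to the arrays of 1 day). Against NC1 DNAJB4 was 0.63 and 2.11 higher, and also passed on the second day alone (adjusted p = 0.259 on the first). The difference of ATF6 from C1 was 2.01 and 2.56, and it passed within each day (limma fitted to the arrays of 1 day, adjusted p = 0.00227 and 4.97e-06). Those of CANX (0.68 and 1.05) and EDEM1 (1.08 and 1.66) had the same direction on both days but passed on the second alone, with an adjusted p of 0.0666 and 0.0131 on the first. HERPUD1 was below NC1 by −2.47 and −1.43 and passed on both days (adjusted p = 0.00252 and 0.00181). HSPA1A was below NC1 by −1.81 and −1.86, with an adjusted p of 0.0185 on the first day, which missed the threshold, and of 0.000663 on the second. With arrays of the first day alone 1 gene passed as higher at C2 than at C1, and with the second day alone 13 did. Of the 13865 valid probes, 569 did so on the first day and 2305 on the second.

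Between the immature stages, 27 of the 38 genes had a lower mean at C1 than at NC1, with a median log2 difference of −0.25 against 0.05 over all valid probes, and 13 of the 16 ER genes did so, with a median of −0.42. None passed the threshold, and the direction depended on the background correction. After normexp correction, which moved the median of all probes by 0.257, the lower mean was at C1 for 17 of 38 genes (median 0.06) and for 8 of 16 ER genes (median −0.10). Quantile and 75th percentile scaling left 29 and 28 of the 38 lower. The arrays did not overlap for DNAJB9, HSP90B1, EDEM1 and PDIA3, each lower at C1, and for none that was higher, where 1.21% of all valid probes were lower without overlap and 0.887% higher. HSP90B1 lay between 9.30 and 9.71 at C1 and between 9.82 and 10.56 at NC1. The means of DNAJB9, HSP90B1, EDEM1 and PDIA3 stayed lower at C1 after normexp correction, by −0.30, −0.40, −0.24 and −0.83. The summed signal of oocyte markers, as given above, was also lower on all C1 arrays than on all NC1 arrays, and their part was not tested.

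The stage means of the 38 genes were rarely highest at C1. It held the highest mean for 2 genes (ATF4 and DNAJA2), where 32.2% of all valid probes were highest at C1, and the lowest mean for 17, where 25.9% were lowest there. C2 held the highest mean for 22 and NC1 for 14, where 47% and 20.9% of all valid probes were highest. The order was taken without normexp correction, which changed the direction between C1 and NC1 for part of the genes. A steady fall from NC1 over C1 to C2 was seen in 10 genes, among them HSPA1A, DNAJB1, HERPUD1 and PDIA4, against 16.7% of all valid probes. The spread between arrays at C2 was also wider, with a median SD of 0.60 for the 38 genes against 0.50 for all valid probes, where NC1 had 0.28 and 0.34.

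Other genes of the folding pathways, 93 of them tested, were called at C2 against C1 in 20 cases, 12 higher and 8 lower. That is 21.5%, below the 28.1% of all valid probes. Against NC1 28 of the 93 were called (30.1%, against 28.1% of all valid probes), 16 higher and 12 lower. By compartment, and against C1, 5 of 40 cytosolic genes were higher and none lower, 3 of 10 mitochondrial genes were higher and 1 lower, and 2 of 29 ER genes were higher and 2 lower. FKBP5, an HSP90 co-chaperone that glucocorticoid and progesterone receptors induce, went from 3.97 at C1 to 7.09 at C2, an 8.70-fold difference (log2 3.12, adjusted p = 1.18e-08), larger than that of any of the 38 genes. DNAJA3, the mitochondrial J-domain partner of HSPA9, was 3.18-fold higher (1.67, adjusted p = 1.73e-05) and DERL1, a subunit of the retrotranslocation channel, 2.10-fold higher (1.07, adjusted p = 0.000927). SIL1, the exchange factor of BiP, fell from 8.64 to 6.49, 4.45-fold (−2.15, adjusted p = 6.08e-06).

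Of the genes of stress control 7 of 14 were called (50%, against 28.1% of all valid probes), 2 higher and 5 lower. TRIB3, a pseudokinase that CHOP and ATF4 induce, was 7.76-fold higher at C2 than at C1 (log2 difference 2.96, adjusted p = 4.85e-06). SESN2 was 5.23-fold lower (−2.39, adjusted p = 4.63e-06), PPP1R15A (GADD34), which reopens translation after stress, 3.28-fold lower (−1.72, adjusted p = 0.000459), ATF3 3.27-fold lower (−1.71, adjusted p = 0.00637) and CHAC1 2.60-fold lower (−1.38, adjusted p = 0.000344). The C2 mean of ATF3 was 5.19 on the first scan day and 7.32 on the second, against 7.75 at C1. For TRIB3 it was 1.66 and 2.60, against −0.92 at C1. Of 14 immediate early genes, which many stimuli induce within minutes, BTG2, JUND, MYC and ZFP36 were lower at C2 than at C1. That is 4 of 14 (28.6%, against 12.8% of all valid probes lower), in a comparison where neither HSPA1A nor DNAJB1 passed. Against NC1 those and FOSL1 were lower (5 of 14, 35.7%, against 12.6%). None passed as higher, and the others, FOS, EGR1 and JUNB among them, did not pass. The part of the immediate early genes in the fall of HSPA1A and DNAJB1 was not tested.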

How the data were processed

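Total RNA of 17 samples was read on a 1-colour bovine oligonucleotide array that spotted nearly all probes in duplicate. The authors deposited scanner output, whose processed intensity (Agilent Feature Extraction 10.5.1.1, after background subtraction) was used here, and a table of log2 values that the authors had median-scaled. Apart from a constant per array, both gave the same values within 2.03e-06 for 99% of probes. Spots of a probe were averaged on the log2 scale and the array median subtracted. The adjusted p threshold of 0.01 is that of the authors' 1-factor ANOVA. Here limma 3.58.1 (R 4.3.3) was fitted to the 13865 valid probes over all 17 arrays and 3 stages, with Benjamini-Hochberg adjustment over these probes, and stage means were also compared by an exact 2-sided permutation test, whose smallest p was 0.00216. The fit was tested on simulated data with independent arrays and the same spread in each stage. That simulation cannot show how the fit handles the wider spread or the alike arrays at C2. The number of arrays limits the precision. All 40 genes were accounted for, each by its brightest valid probe, with array values for up to 12 called genes of largest change and for genes whose probes disagreed. Members and lists were chosen with earlier results of these data known. Alternatives were other scalings (75th percentile, quantile), normexp background correction (offset 50), other filters, the authors' table, array weights, 2 stages alone, a slide block, a replicate block and each array left out, with scan days alone added after seeing the data. No genome build is named in the array files, and no coordinates are given.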

Additional observations from a re-analysis of the deposited data

Results flagged for a closer look

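In 11 of 114 groups of arrays (38 genes in 3 stages, 9.65%), 1 array stood apart from the rest of its stage by Dixon's 95% limit, which chance gives in about 1 of 20 groups. The values here are log2 scaled signals. Of the 11 values, 5 came from NC1 replicate 5, which was highest for each: CALR at 10.85, DNAJC3 at 5.47, HSPA5 at 11.09, HSPB1 at 10.88 and P4HB at 10.66. C1 replicate 6 was highest for HSP90AA1 at 8.75 and for HYOU1 at 8.46, and C1 replicate 3 was lowest for HSPA5 at 9.73. NC1 replicate 3 was highest for HSPA2 at 3.44. C2 replicate 2 was lowest for HSPA9 at 1.00 and for HSPH1 at 5.64. Of these genes, DNAJC3 was called between C2 and C1 and HSPA2 between C2 and NC1, and the others in no comparison. The HSPA2 call used the NC1 group that held its outlying array, and was kept when that array was left out.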

How the results depend on the processing

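All 22 called differences between stages kept their direction under 30 alternatives, 9 of them (ATF6 and CANX against both immature stages, EDEM1 and PDIA3 against C1, HERPUD1, HSPA1A and HSPA2 against NC1) stayed called under each, and 118 of 660 values no longer passed. The causes were not tested. Of the 11 genes higher at C2 than at C1, 5 passed with normexp, 5 with the 2 stages alone, 7 with the slide as a block and 6 with the alike C2 arrays averaged. The 1 lower gene became 2 with quantile scaling and 0 with the 2 stages alone. The 6 genes higher than NC1 became 3 with the 2 stages alone. The 4 lower than NC1 became 7 with quantile scaling, and 2 with normexp, with the 2 stages alone and with the slide block. Over the 3 stages 10 genes differed, 18 with array weights and 6 with the slide block, and with array weights 1 gene (PDIA3) was lower at C1 than at NC1. On scan day 1 alone, chosen after seeing the data, 3 genes differed over the stages, 1 was higher and 2 lower at C2 than at C1, and 1 was higher and 2 lower than at NC1. On scan day 2 alone none was lower than C1 and 2 were lower than NC1. Of all valid probes, 569 were higher and 792 lower at C2 than at C1 on the first day, and 2305 and 1761 on the second. 

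Same replicate numbers did not pair the arrays (4 of 16 pairs correlated above 0.1, median −0.07). With the replicate block 6 genes were higher at C2 than at C1 and 2 lower than at NC1. 

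Leaving out 1 array gave 9 to 14 genes over the 3 stages. It gave 6 (without C2 replicate 4) to 14 (without C1 replicate 6) higher at C2 than at C1, 7 without C1 replicate 1, 3, 4 or 5 or C2 replicate 3, and 1 to 2 lower (2 without C2 replicate 1). Against NC1 it gave 4 to 6 higher and 2 to 6 lower (2 without NC1 replicate 1, 2 or 6 or C2 replicate 1, 6 without C2 replicate 4), and 0 between C1 and NC1. Scaling to the 75th percentile moved the median of all probes by −0.127 between C2 and C1, quantile scaling by −0.082 and normexp by −0.0818, and normexp moved it by 0.198 between C2 and NC1. Of all valid probes called between C2 and C1, 2117 were higher and 1775 lower, which became 2114 and 2514 with the 75th percentile and 2212 and 2464 with quantile scaling. Between C2 and NC1, 2152 and 1741 became 2083 and 2491 with the 75th percentile, 2151 and 2454 with quantile scaling and 2468 and 1200 with normexp. The authors' 1-factor test gave 10 genes over the 3 stages.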
